A study of Mus musculus with 9 samples.

Results

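The genes described here are 9 regulators of the G1 phase of the cell cycle: the D cyclin genes Ccnd1, Ccnd2 and Ccnd3, the kinase genes Cdk4 and Cdk6, and the inhibitor genes Cdkn1a, Cdkn1b, Cdkn2a and Cdkn2c. They were chosen by name, as 9 of 22208 protein-coding genes on chromosomes 1 to 19 and X, and every peak that overlapped the mm9 gene body or the 50 kb on either side was taken, which gave 295 of the 190262 peaks in 5 ChIP-seq peak lists. The CTCF lists came from pro-B cells grown for 7 days with the cytokine IL7 and from pre-B cells. The lists of Rad21, a subunit of the cohesin ring, came from pre-B cells and from CD4-CD8- (DN) and CD4+CD8+ (DP) thymocytes. All mice were C57BL/6 and lacked RAG1 (the labels write RAG1-/- for the pro-B cells, RAG-/- for the pre-B cells and Rag1 -/- for the thymocytes), so no cell could rearrange its antigen receptor genes. The pre-B cells also carried a rearranged IgM transgene (µ+) and the DP thymocytes a TCRb transgene, whereas pro-B cells and DN thymocytes carried neither. Bone marrow came from mice of 6 to 14 weeks and thymus from mice of 4 to 8 weeks. Each antibody and cell type had 1 library, how many animals went into it was not given in the sources used here, the pre-B CTCF and Rad21 libraries shared 1 input, and no difference between cell types could be tested against a spread between animals. RNA and marker gene levels were not measured in these files, so the labelled cell types could not be checked against their markers.

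D cyclins bind and activate Cdk4 and Cdk6 in G1, and the active kinases phosphorylate the retinoblastoma protein, which frees E2F factors to switch on genes for DNA replication. Inhibitors of the Ink4 family, such as those made from Cdkn2a and Cdkn2c, bind Cdk4 and Cdk6 directly, whereas the Cip/Kip proteins p21 (Cdkn1a) and p27 (Cdkn1b) bind cyclin and kinase complexes. In developing lymphocytes Ccnd2 and Ccnd3 are the main D cyclins, IL7 drives the division of pro-B cells, and pre-T and pre-B receptor signals drive division before the next stage. CTCF is a DNA-binding protein that halts cohesin as it extrudes loops, so that many CTCF sites also hold Rad21.

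Binding at the starts of these genes ranged from a CTCF and Rad21 site called in all 5 lists, at Ccnd1 and Cdkn1a, to no Rad21 peak in any list, at Cdkn2a. A peak counted as a promoter peak when it overlapped the 2 kb on either side of any annotated transcript start of the gene. With 1 kb instead, only Ccnd1 kept a promoter peak in all 5 lists, and Cdkn1a kept one only for Rad21 in pre-B and DP cells. In IL7-cultured pro-B cells 9 of the 9 genes had a CTCF promoter peak, where 46.2% of all protein-coding genes did. In pre-B cells 7 of the 9 had one, all except Cdk4 and Cdkn1b, where 33.2% of all genes did. With both CTCF lists limited to equal length the counts were 5 in the IL7 culture (30.3% of all genes) and 7 in pre-B cells (33.2%), so that the order of the lists turned, and the IL7 peaks of Cdk4 and Cdkn1b had score ranks near the bottom of their list (above 1.49% and 2.59% of its peaks). In pre-B cells a Rad21 promoter peak was called at 5 of the 9 genes (25.5% of all genes). In DN thymocytes it was called at 2, Ccnd1 and Cdkn1a (6.64% of all genes), and in DP thymocytes at 7, all except Ccnd2 and Cdkn2a (36.4%). With Rad21 lists of equal length these counts were 3, 2 and 4, beside 7.34%, 6.64% and 9.65% of all genes. The median number of annotated starts was 2.00 for these genes and 2.00 for all genes. These shares stand beside the background as a description of 9 chosen genes and were not tested.

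The strength of a peak is given here as its score percentile, the percentage of peaks in the same list with a lower score. The score comes from the peak caller's p-value and grows with sequencing depth, so it was ranked within 1 list. A percentile also depends on the length of its list, so percentiles of different lists are not on a common scale. Percentiles among the sites called in both lists of a pair are given further below. The lists held 71080 CTCF peaks in IL7-cultured pro-B cells, 42250 CTCF peaks in pre-B cells, and 30488, 9701 and 36743 Rad21 peaks in pre-B, DN and DP cells. Their lowest scores ranged from 50 to 86.45, the sequencing depth of each library is unknown, and a site missing from a list is a site that was not called there. The DN list was the shortest and had the highest lowest score.

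**Figure D1:**
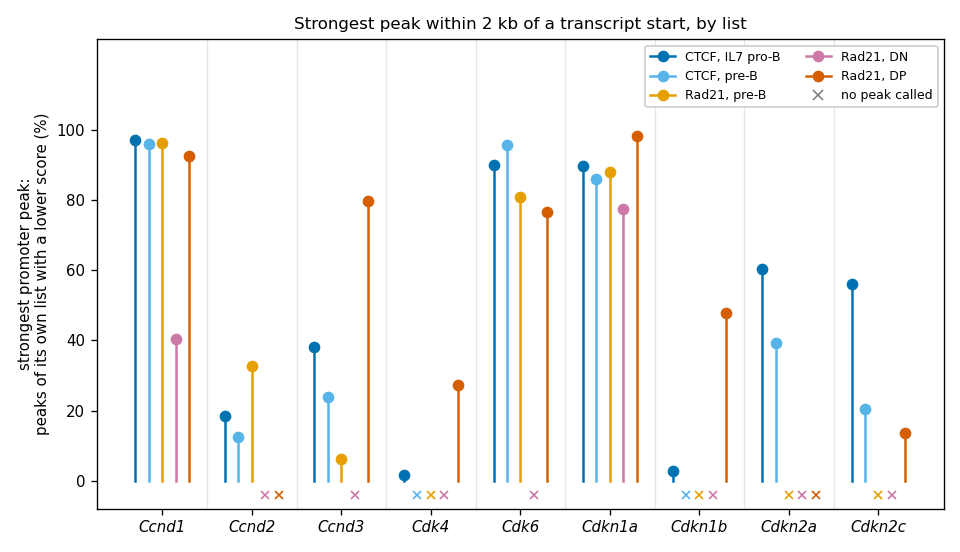
Score percentile of the strongest promoter peak (within 2 kb of a transcript start) of each gene in each of the 5 lists, with a cross where no peak was called; 1 library per list, so there are no error bars. Ccnd1 and Cdkn1a have a peak in all 5 lists, Cdk6 in all except DN, and Cdkn2a in the CTCF lists only.

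The 9 windows held 106 CTCF peaks of the IL7 culture and 64 of pre-B cells, and 45, 9 and 71 Rad21 peaks of pre-B, DN and DP cells. Each of the 9 genes had at least 1 peak in its window in every list except DN, where 6 did. Over all genes these shares were 91.0% and 84.7% for CTCF in the IL7 culture and pre-B cells, and 80.0%, 57.0% and 78.2% for Rad21 in pre-B, DN and DP cells. Scaled to length, the median of the 9 genes was 7.98 CTCF peaks per 100 kb in the IL7 culture (5.03 over all genes) and 5.47 in pre-B cells (3.06 over all genes). For Rad21 the medians were 3.83 in pre-B cells (2.00 over all genes), 0.798 in DN (0.658) and 6.71 in DP thymocytes (2.32). The medians of the 9 genes were thus above those of all genes in each list, by the least in DN. With lists of equal length within an antibody the 9 windows held 61 and 64 CTCF peaks and 15, 9 and 18 Rad21 peaks, in the same order.

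Every CTCF peak of pre-B cells in these windows was also called in the IL7 culture. The count was 64 of 64, or 100% (exact Clopper-Pearson 95% interval 94.4 to 100%), beside 96.0% over the whole pre-B list. In the other direction 65 of 106 IL7 peaks overlapped a pre-B peak, or 61.3% (51.4 to 70.6%), beside 58.6% over the whole list. Such intervals cover counting error only and treat neighbouring peaks as independent. The 41 IL7 peaks without a pre-B partner were weak, with a median score percentile of 18.4 and a highest of 60.6, whereas the 65 shared ones had a median of 70.3. Over the whole list the medians were 23.8 and 70.5, and the highest unshared peak stood at 99.3. No CTCF peak in these windows was found in pre-B cells and missing from the IL7 culture.

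When the CTCF and Rad21 peaks of all 5 lists were merged where they overlapped, the 9 windows held 128 sites. Of these, 9 sites were called in all 5 lists, or 7.03%, beside 10.3% of the 83461 merged sites of the genome. They lay at Ccnd1 (1 site), Ccnd2 (1), Ccnd3 (2), Cdk4 (1), Cdk6 (1) and Cdkn1a (3). A further 25 sites were called in every list except DN, 32 were called only as CTCF in the IL7 culture, and 20 only as Rad21 in DP thymocytes. These were 19.5%, 25.0% and 15.6% of the 128 sites, beside 12%, 30.1% and 12.3% over the genome, and 43.0% were called in a single list, beside 45.2%. No site was called only as CTCF in pre-B cells or only as Rad21 in DN thymocytes. Over the genome 96.0% of pre-B CTCF peaks overlapped an IL7 peak, and 0.310% of merged Rad21 sites were called in DN alone.

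The D cyclin genes differed in where the peaks lay and in the lists in which they were called. Ccnd1 had a site near its start that was called in every list. Ccnd2 had its strong sites within the gene and only weak peaks at the start. Ccnd3 had a row of Rad21 peaks in its introns in DP thymocytes, most of them without a Rad21 call in pre-B or DN cells.

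Ccnd1 (ENSMUSG00000070348.4, chr7:152115836-152125774, minus strand) encodes cyclin D1. Its main site, chr7:152123114-152124048 as called for CTCF in pre-B cells, lay in an intron 2.19 kb into the gene, beside the more internal of 2 annotated starts. The score percentile of CTCF there was 97.2 in IL7-cultured pro-B cells and 96.0 in pre-B cells. That of Rad21 was 96.5 in pre-B cells, 40.5 in DN thymocytes and 92.6 in DP thymocytes. The Rad21 rank at the site was 1079 of 30488 in pre-B cells, 5771 of 9701 in DN and 2703 of 36743 in DP thymocytes. In DN, the shortest list, the site held the only peak of the window. It held the 12-base CTCF motif that the study had derived from its own CTCF peaks, with 2 mismatches, in the following 60 bases of chr7:152123510-152123569 (mm9, minus strand, motif in capitals).
Ccnd1: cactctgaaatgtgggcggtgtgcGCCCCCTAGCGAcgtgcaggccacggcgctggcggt

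The remaining sites of Ccnd1 lay mostly on the 3′ side, towards Oraov1 and Fgf15. With the main site included, the window held 19 CTCF peaks in the IL7 culture and 10 in pre-B cells, and 6 and 8 Rad21 peaks in pre-B and DP cells. The IL7 density of 17.3 CTCF peaks per 100 kb was higher than that of 98.9% of all genes, and the pre-B density of 9.10 than that of 94.1%. With CTCF lists of equal length the window held 12 and 10 CTCF peaks. The 6 Rad21 peaks of pre-B cells all overlapped a CTCF peak of the same cells, as did 88.1% of the whole pre-B Rad21 list. At the 5′-most start itself a peak centred 87 bp into the gene was called only in the IL7 culture, at percentile 11.5. Another weak peak 1.59 kb upstream was again called only there, at percentile 19.7.

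Ccnd2 (ENSMUSG00000000184.9, chr6:127075797-127101066, minus strand) encodes cyclin D2. A site in an intron 3.14 kb from the start was called in all 5 lists. CTCF there had percentile 96.2 in the IL7 culture and 81.6 in pre-B cells. Rad21 had percentile 90.6 in pre-B cells, 89.1 in DN thymocytes and 98.0 in DP thymocytes, where the peak ranked 752 of 36743. Of the members, Ccnd2 thus had the DN peak with the highest percentile, and Rad21 ranked near the top of each Rad21 list at this site. A second intronic site, 8.60 kb from the start, had CTCF at percentile 98.6 in the IL7 culture and 78.0 in pre-B cells. Rad21 at that second site reached percentile 57.5 in pre-B and 42.5 in DP cells, and no DN peak was called. The first of these sites held the CTCF motif with 1 mismatch, the closest match of those printed here, in chr6:127097864-127097923 (minus strand, motif in capitals).
Ccnd2: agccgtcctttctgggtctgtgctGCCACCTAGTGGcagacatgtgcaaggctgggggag

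At the start of Ccnd2 the peaks were weak, and no Rad21 peak was called there in thymocytes. CTCF lay 0.720 kb upstream, at percentile 18.3 in the IL7 culture and 12.4 in pre-B cells. Rad21 in pre-B cells had a peak at the same place (percentile 32.7, rank 20524 of 30488) and another over a coding exon (percentile 18.0) that overlapped no CTCF peak. Neither Rad21 peak had a counterpart in DN or DP thymocytes. On the 3′ side of the gene 2 more Rad21 sites of pre-B cells, 28.3 and 56.3 kb from the start, overlapped CTCF peaks of both B-lineage lists and were again not called in thymocytes. Of the 6 merged Rad21 sites of the Ccnd2 window 4 were called in pre-B cells alone, a pattern of 20.6% of such sites over the genome, and 0 in DP thymocytes alone. The 4 were weak, at percentiles from 13.7 to 37.7. With the Rad21 lists limited to equal length, the Ccnd2 window held 1 peak in each of them. Beyond a CTCF peak of the IL7 culture centred 1.20 kb upstream of the start, no peak was called in any list up to the edge of the window 50 kb away.

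Ccnd3 (ENSMUSG00000034165.8, chr17:47642000-47736632, plus strand) encodes cyclin D3. Its strongest site, chr17:47647851-47648761 as called for CTCF in pre-B cells, lay in an intron 6.31 kb from the 5′ end and was called in all 5 lists. The CTCF percentile was 98.9 in the IL7 culture and 98.3 in pre-B cells. Rad21 had percentile 97.8 in pre-B cells, 84.2 in DN thymocytes and 98.1 in DP thymocytes. Of the 9 sites called in all 5 lists it had the highest lowest percentile, 84.2. Its best match to the CTCF motif had 3 mismatches and was equally good on both strands, so no direction was assigned and no bases are printed. The other site called in all 5 lists lay 22.5 kb upstream, with CTCF at percentile 89.2 and 88.5 and Rad21 at 74.3, 52.7 and 89.8 in pre-B, DN and DP cells.

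Inside Ccnd3 the DP thymocytes had 13 Rad21 peaks, where pre-B cells had 4 and DN thymocytes 1. Of the 13, 10 overlapped no Rad21 peak of pre-B cells, as did 43.7% of the whole DP list, and 7 overlapped no CTCF peak in either B-lineage list, as did 30.8%. The strongest of the 10 lay 26.5 kb into the gene at percentile 90.7 (rank 3408 of 36743), and the next 37.0 kb into it at percentile 84.7. At those sites CTCF was called only in the IL7 culture and was weak there, at percentiles 15.8 and 19.4. A broad DP peak of 3060 bp centred 89.9 kb from the 5′ end covered the second annotated start, at percentile 79.8 (rank 7413). That start had a CTCF peak at percentile 1.77 in the IL7 culture and no Rad21 peak in pre-B or DN cells. The window as a whole held 22 Rad21 peaks in DP thymocytes, a density higher than that of 97.8% of all genes, and 12 in pre-B cells, higher than 91.0%. With each Rad21 list limited to its top 9701 peaks, the length of the DN list, the gene held 5 peaks in DP, 1 in pre-B and 1 in DN cells, and the window 8, 5 and 2. None of the 7 DP peaks without B-lineage CTCF was among those 5, the best of them ranking 11109. At the 5′-most start the peaks were weak, with Rad21 at percentile 6.24 in pre-B and 39.6 in DP cells and CTCF 1.85 kb upstream at 38.0 in the IL7 culture and 23.8 in pre-B cells.

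**Figure D2:**
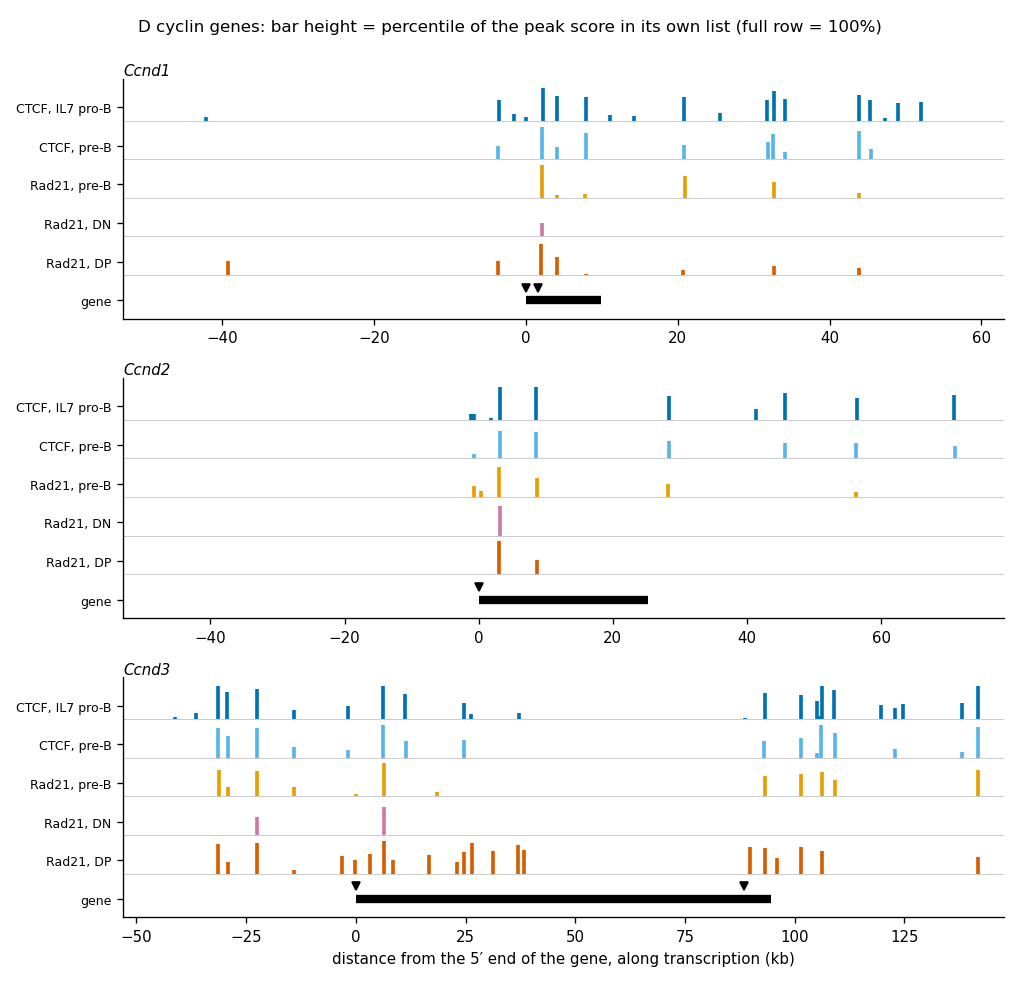
CTCF and Rad21 peaks of the 5 lists along Ccnd1, Ccnd2 and Ccnd3; the horizontal axis is the distance in kb from the 5′ end of the gene in the direction of transcription, bar height is the score percentile in the peak's own list, black bars are genes and triangles annotated transcript starts. Ccnd1, Ccnd2 and Ccnd3 each have an intragenic site in all 5 rows, and the DP row of Ccnd3 has 13 peaks within the gene.

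The kinase genes contrasted with each other. Cdk6 had strong CTCF at its start in both B-lineage lists and strong Rad21 there in pre-B and DP cells, whereas the start of Cdk4 carried only weak peaks and the strong sites of its window lay outside the gene, some of them at neighbouring genes.

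Cdk6 (ENSMUSG00000040274.5, chr5:3343893-3523218, plus strand) is the longest gene of the set, with 179 kb. The main CTCF peak, chr5:3344314-3344744 in pre-B cells, lay 0.217 kb downstream of the more internal of 2 annotated starts, and its percentile was 95.8 in pre-B cells and 90.0 in the IL7 culture. Rad21 over the same place had percentile 81.1 in pre-B (rank 5775 of 30488) and 76.6 in DP cells (rank 8605 of 36743), and was not called in DN thymocytes. Weaker CTCF peaks flanked the site on the upstream side, at percentiles 47.0 and 40.0 in pre-B cells. The best match to the CTCF motif in the main peak had 3 mismatches and was tied between strands.

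Along the rest of Cdk6 CTCF peaks were sparse. Pre-B cells had 2 more CTCF peaks in the gene, 169 and 173 kb from its 5′ end. The latter site, in an intron near the 3′ end, was the only one in the window called in all 5 lists, with CTCF at percentile 65.5 in the IL7 culture and 59.6 in pre-B cells. Rad21 there had percentile 73.8 in pre-B cells, 38.9 in DN thymocytes and 80.6 in DP thymocytes. The DP list added 4 peaks in the gene that were not called in pre-B cells, at percentiles from 0.0708 to 59.1. The CTCF densities of 3.94 and 2.15 peaks per 100 kb in IL7-cultured pro-B and pre-B cells were higher than those of only 39.9% and 37.9% of all genes. For Rad21 in DP thymocytes the window held 10 peaks, and the density of 3.58 per 100 kb was higher than that of 64.9% of all genes. Downstream of the gene, at the start of Fam133b, CTCF had percentile 96.8 in the IL7 culture and 87.0 in pre-B cells, with Rad21 at 21.7 in pre-B and 60.8 in DP cells.

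Cdk4 (ENSMUSG00000006728.6, chr10:126500590-126504976, plus strand) is 4.39 kb long. At its start a CTCF peak was called only in the IL7 culture, at percentile 1.49 (rank 70017 of 71080), and a Rad21 peak only in DP thymocytes, at percentile 27.2. Pre-B cells and DN thymocytes had no peak there. The gene body held no CTCF peak in either list and 1 Rad21 peak, the DP peak that also covered the start.

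The window of Cdk4 nevertheless held 16 CTCF peaks in the IL7 culture and 9 in pre-B cells. The densities of 15.3 and 8.62 peaks per 100 kb were higher than those of 97.4% and 92.5% of all genes. With CTCF lists of equal length the window held 7 and 9 CTCF peaks. The strongest CTCF peak of pre-B cells in any of the 9 windows lay 32.5 kb upstream, at the start of Tsfm (percentile 98.9, rank 454 of 42250). CTCF there had percentile 96.0 in the IL7 culture, and Rad21 79.1 in pre-B and 62.6 in DP cells. The motif in this peak had 2 mismatches, in chr10:126467930-126467989 (plus strand, motif in capitals).
Upstream of Cdk4, at Tsfm: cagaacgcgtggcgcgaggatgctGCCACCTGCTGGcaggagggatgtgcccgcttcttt

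The only site of the Cdk4 window called in all 5 lists lay 5.10 kb upstream, in an intron of March9. CTCF there had percentile 98.2 in the IL7 culture and 92.3 in pre-B cells. Rad21 had percentile 61.3 in pre-B cells, 21.8 in DN thymocytes and 65.5 in DP thymocytes. On the other side of the gene, 11.7 kb from its start, CTCF had percentile 97.0 in pre-B cells and 81.9 in the IL7 culture, and Rad21 54.6 in pre-B and 84.1 in DP thymocytes. Cdk4 thus lay between 3 sites with pre-B CTCF percentiles of 92.3 or higher, none of them within 2 kb of its own starts.

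**Figure D3:**
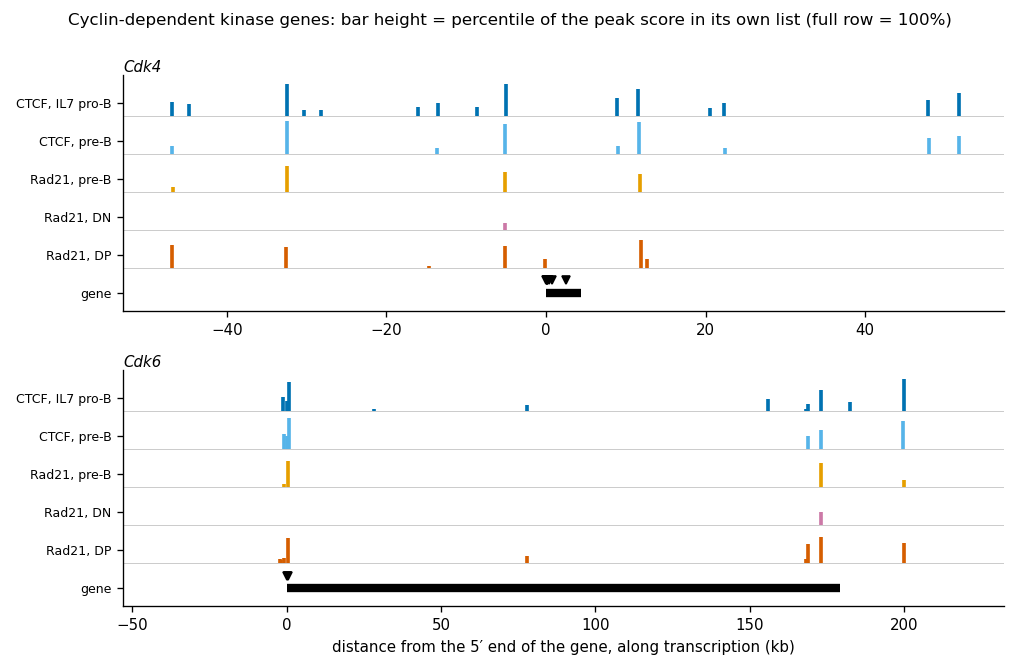
Peaks of the 5 lists along Cdk4 and Cdk6, drawn by distance in kb from the 5′ end with bar height as score percentile in the peak's own list; black bars are genes and triangles annotated starts. The start of Cdk6 carries a tall bar in each list except DN, whereas the tall bars around Cdk4 lie outside the gene.

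Among the inhibitor genes, binding within 2 kb of an annotated start was strong only at Cdkn1a. Cdkn1b had its CTCF sites at a distance, Cdkn2a had CTCF with hardly any Rad21, and Cdkn2c had peaks of low to middle rank.

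Cdkn1a (ENSMUSG00000023067.7, chr17:29227924-29237667, plus strand) encodes p21, a Cip/Kip inhibitor and a classical target of p53. A site in an intron, chr17:29231863-29232937 as called for CTCF in pre-B cells and 1.68 kb downstream of the second of 3 annotated starts, was called in all 5 lists. The CTCF percentile was 89.7 in the IL7 culture and 86.1 in pre-B cells. Rad21 had percentile 88.0 in pre-B cells, 77.6 in DN thymocytes and 98.3 in DP thymocytes, where the peak ranked 616 of 36743, the highest rank of any DP peak in the 9 windows. The Rad21 peak of pre-B cells was 2657 bp wide and reached over the second start. In DP thymocytes that start had a separate weak peak, at percentile 25.4. The 5′-most start had no peak within 2 kb in any list. The best CTCF motif match in this site had 2 mismatches and was tied between strands.

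Cdkn1a had 2 further sites called in all 5 lists, 45.9 and 42.0 kb upstream. At the outer one CTCF had percentile 76.7 and 77.4 in IL7-cultured pro-B and pre-B cells, and Rad21 90.2, 22.1 and 89.6 in pre-B, DN and DP cells. At the inner one the strongest CTCF peak had percentile 90.3 and 81.4, and Rad21 89.7, 36.6 and 88.8. These 3 sites made Cdkn1a the gene with the most DN peaks, and its DN density was 2.73 per 100 kb, beside a median of 0.658 over all genes. Between the upstream pair and the gene the CTCF peaks were weak, at percentiles of at most 31.8.

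Cdkn1b (ENSMUSG00000003031.8, chr6:134870419-134875531, plus strand) encodes p27, a Cip/Kip inhibitor abundant in resting cells. At its start Rad21 in DP thymocytes had 2 peaks, at percentiles 47.8 and 21.2, and CTCF in the IL7 culture had 1, at percentile 2.59. Pre-B cells and DN thymocytes had no peak there, and DN thymocytes had none in the window. The strongest CTCF site lay 27.1 kb downstream of the start, between genes, with CTCF at percentile 85.8 in the IL7 culture and 76.9 in pre-B cells. Rad21 there had percentile 72.5 in pre-B and 74.7 in DP cells, so that its percentile ran from 72.5 to 85.8 over 4 lists. Its motif had 2 mismatches, in chr6:134897572-134897631 (plus strand, motif in capitals).
Downstream of Cdkn1b: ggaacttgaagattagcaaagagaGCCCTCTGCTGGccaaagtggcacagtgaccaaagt

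The strongest DP Rad21 peak in the Cdkn1b window lay at the start of the neighbouring Gpr19, 22.2 kb upstream. It had percentile 86.4 in DP thymocytes and 7.10 in pre-B cells, and overlapped no CTCF peak in either B-lineage list. Ranked only among the sites called in both of these Rad21 lists, it stood at 77.0 in DP and 3.64 in pre-B cells, and a difference at least as large as these 73.3 points was seen at 0.935% of such sites over the genome.

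Cdkn2a (ENSMUSG00000044303.5, chr4:88920377-88940557, minus strand) encodes p16Ink4a from its inner start and p19Arf from its outer start. At the inner start CTCF had percentile 60.5 in the IL7 culture and 39.2 in pre-B cells. Among the sites called in both CTCF lists it stood at 32.8 in the IL7 culture and 36.8 in pre-B cells. At the outer start CTCF was called only in the IL7 culture, at percentile 58.0, with no pre-B peak. Rad21 was called at neither start in any of the 3 lists. The peak at the outer start held the motif with 2 mismatches, in chr4:88940752-88940811 (plus strand, motif in capitals), and is shown because it was the only one of the IL7 CTCF promoter peaks of the 9 genes to lie above percentile 50 without a pre-B partner.
Cdkn2a outer start: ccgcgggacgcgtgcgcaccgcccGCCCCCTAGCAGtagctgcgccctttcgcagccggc

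The strongest site in the Cdkn2a window lay at the start of Cdkn2b, which encodes p15, another Ink4 inhibitor, 16.1 kb upstream of the Cdkn2a start. CTCF there had percentile 85.7 in the IL7 culture and 53.8 in pre-B cells. Rad21 had percentile 2.53 in pre-B and 6.95 in DP cells and was not called in DN thymocytes. These were the only Rad21 peaks in the 120 kb around Cdkn2a, and its densities of 0.832 per 100 kb were higher than those of 26.8% and 28.0% of all genes in pre-B and DP cells. The Cdkn2b site had 2 mismatches to the motif, in chr4:88956449-88956508 (minus strand, motif in capitals).
Cdkn2b start: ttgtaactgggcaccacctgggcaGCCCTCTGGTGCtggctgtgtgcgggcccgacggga

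Cdkn2c (ENSMUSG00000028551.8, chr4:109333481-109339794, minus strand) encodes p18Ink4c. CTCF 1.41 kb upstream of its start had percentile 56.1 in the IL7 culture and 20.5 in pre-B cells. Rad21 was called near the start only in DP thymocytes, at percentile 13.5 and at another place, 1.03 kb into the gene. DN thymocytes had no peak in the window. The strongest CTCF site lay 32.0 kb from the start on the 3′ side, at percentile 73.3 in the IL7 culture and 48.0 in pre-B cells. Rad21 there had percentile 57.5 in pre-B cells, the highest for this gene, and was not called in thymocytes. At the start of the neighbouring Faf1, 9.59 kb upstream, CTCF was called only in the IL7 culture, at percentile 60.6, with Rad21 at 2.49 in DP thymocytes.

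**Figure D4:**
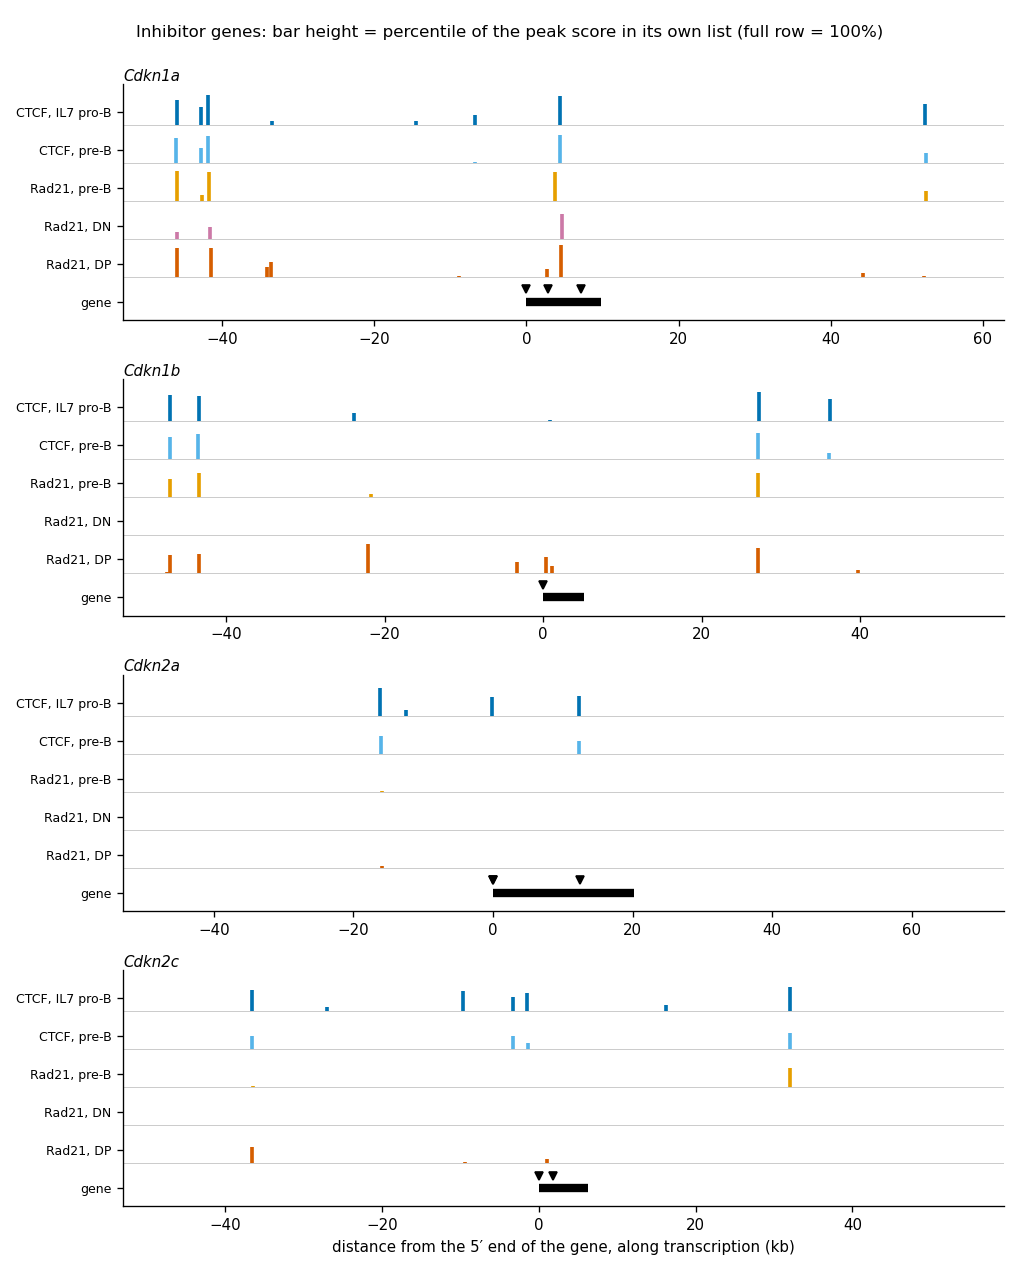
Peaks of the 5 lists along Cdkn1a, Cdkn1b, Cdkn2a and Cdkn2c, drawn by distance in kb from the 5′ end with bar height as score percentile in the peak's own list; black bars are genes and triangles annotated starts. Cdkn1a has 3 DN bars and the other inhibitors none, and the Rad21 rows of Cdkn2a hold 2 low bars in all.

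CTCF sites around these genes that were called in both lists held similar percentiles in pre-B cells and the IL7 culture, with single differences down to -34.7 points. Each site called in both lists was given its percentile among all such sites, and the IL7 value minus the pre-B value had a median of -0.716 over 64 sites of the members and -0.168 over 40375 sites of the genome. The differences ran from -34.7 to 25.6, and their median size was 8.61 points around the members and 9.83 over the genome. The most negative one was at a Cdk6 site 169 kb into the gene (38.2 in pre-B cells, 3.50 in the IL7 culture), and the weak CTCF peaks at the Cdk6 start also stood lower in the IL7 culture (13.1 against 44.8 and 7.06 against 37.6). Differences of similar size were found at a Ccnd3 site 24.7 kb into the gene (49.4 in pre-B cells, 17.7 in the IL7 culture) and a Ccnd1 site 7.90 kb into the gene (76.9 and 45.8). The most positive one was at a site 36.1 kb from the Cdkn1b start (15.5 in pre-B cells, 41.1 in the IL7 culture). The Ccnd2 site 8.60 kb from the start and the Cdkn2b site stood higher in the IL7 culture, at 97.6 against 77.1 and at 75.0 against 51.8. Over the genome, differences at least as large were seen at 4.15%, 6.00% and 6.84% of shared sites for the Cdk6 sites, at 5.90% for the Ccnd3 site and at 6.46% for the Ccnd1 site. For the Cdkn1b, Ccnd2 and Cdkn2b sites the shares were 11.7%, 19.5% and 15.1%.

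Rad21 sites shared by pre-B cells and DP thymocytes numbered 36, with differences, taken as DP minus pre-B, from -45.0 to 73.3, a median of 1.44 and a median size of 11.4 points, beside 15.5 over the genome. The Ccnd1 site in Oraov1, 20.9 kb from the start, stood at 52.8 in pre-B and 7.78 in DP cells. A site 46.8 kb upstream of Cdk4 went the other way, from 8.10 in pre-B to 53.3 in DP cells. Differences at least as large were seen at 9.85% and 9.75% of shared sites over the genome. At the strong promoter sites the differences were smaller. Ccnd1 stood at 94.8 in pre-B and 87.2 in DP cells, Cdk6 at 72.7 and 62.3, and Cdkn1a at 82.5 and 97.1. The weak Ccnd3 promoter site stood at 3.13 and 23.4.

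**Figure D5:**
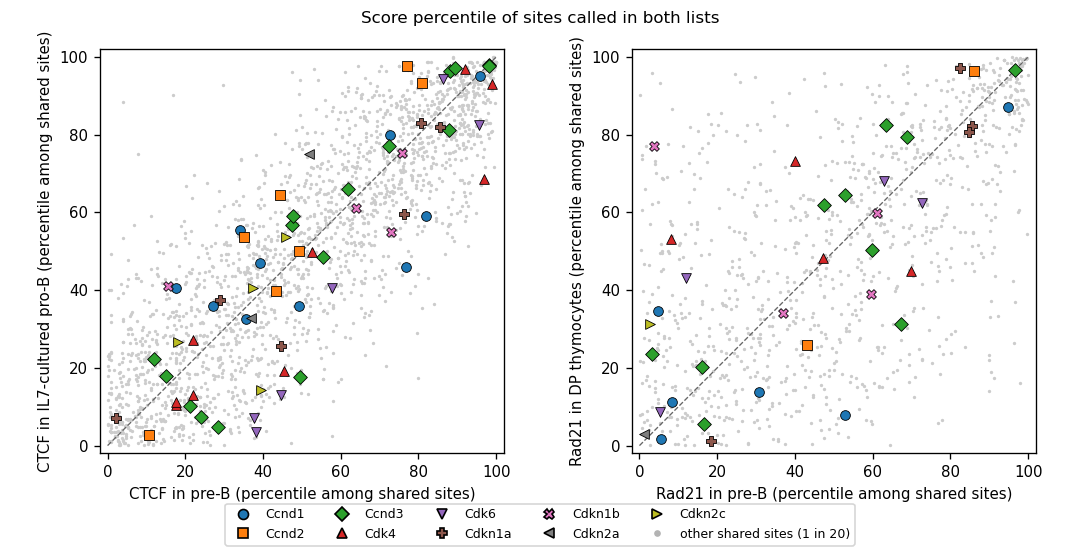
Percentile of each site among the sites called in both lists of a pair, for CTCF in pre-B against IL7-cultured pro-B cells (left, 64 sites of the members) and Rad21 in pre-B cells against DP thymocytes (right, 36 sites); grey points are 1 in 20 of the other shared sites and the dashed line marks equal percentiles. The member site farthest from the dashed line is the Gpr19 start near Cdkn1b, at the upper left of the right panel (3.64 in pre-B cells, 77.0 in DP thymocytes).

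The overlap of Rad21 with CTCF around these genes lay near that over the whole lists. In pre-B cells 41 of 64 CTCF peaks overlapped a Rad21 peak, or 64.1% (51.1 to 75.7%), beside 63.5% of the whole list. Conversely 40 of 45 Rad21 peaks overlapped a CTCF peak of the same cells, or 88.9% (75.9 to 96.3%), beside 88.1%. CTCF peaks with Rad21 had a median percentile of 73.9 and those without had 29.8, where the highest of the latter was 54.5. Over the whole list these medians were 66.8 and 23.3, and the highest without Rad21 stood at 99.4. All 9 DN peaks overlapped a B-lineage CTCF peak (98.4% of the whole DN list did), a Rad21 peak of pre-B cells (93.9%) and one of DP cells (94.5%). Of the 45 Rad21 peaks of pre-B cells 36, or 80.0%, overlapped a DP peak, beside 67.3%, and of the 71 DP peaks 37, or 52.1%, overlapped a pre-B peak, beside 56.3%. With the CTCF peaks of the IL7 culture added, still 40 of 45 pre-B Rad21 peaks overlapped CTCF, beside 92.4%. In DP thymocytes 48 of 71 Rad21 peaks overlapped a CTCF peak of either B-lineage list, or 67.6% (55.5 to 78.2%), beside 69.2%. Thymocyte CTCF was not analysed here, and a DP peak without CTCF is one without a CTCF call in B-lineage cells.

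Merged over the Rad21 lists alone, the windows held 79 sites. Of these, 9 were called in all 3 lists (11.4%, beside 18.7% over the genome), 27 in pre-B and DP cells (34.2%, beside 25.1%), 9 in pre-B cells alone (11.4%, beside 20.6%) and 34 in DP thymocytes alone (43.0%, beside 33.6%). None was called in DN and pre-B cells without DP, in DN and DP cells without pre-B, or in DN alone, patterns that made up 0.831%, 0.940% and 0.310% of the sites of the genome. Of the 34, 12 lay in the window of Ccnd3, 6 at Cdk6 and 5 at Cdkn1b. DP Rad21 peaks not called in pre-B cells had a median percentile of 33.4 and shared ones 62.6 (32.2 and 66.3 over the whole list), so the DP-only peaks were mostly of low rank, with the Ccnd3 intron sites at 90.7 and 84.7 at the top.

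The CTCF motif, named Homer_DeNovo in the study's motif library, was searched on both strands with at most 2 mismatches. It matched 33 of 64 pre-B CTCF peaks in the windows, or 51.6% (38.7 to 64.2%), beside 48.3% over the whole list and 7.81% at sequences 2000 bp away from the same peaks. With a Rad21 peak 58.5% of the CTCF peaks matched (24 of 41) and without one 39.1% (9 of 23), beside 53.6% and 39.1% over the whole list. Of the DP Rad21 peaks that overlapped a B-lineage CTCF peak 52.1% matched, and of the 23 that did not, 17.4% did (4.95 to 38.8%), beside 49.7% and 9.98% over the genome. The difference between those groups in the windows was not tested.

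Of those 23 DP peaks without a B-lineage CTCF call, 9 lay in the Ccnd3 window, 4 at Cdkn1a, 3 at Cdkn1b and 3 at Cdk6. Short motifs of lymphocyte factors were counted in the central 300 bases of each, on both strands: TGTGGT, a Runx-type motif, and CAGCTG and CAGGTG, E-box motifs of the type bound by E proteins. CAGGTG read from the other strand can fall inside the CTCF motif, as it does in the bases printed for Tsfm. TGTGGT was present in 5 of 23 (21.7%, beside 26.9% of all 11328 DP Rad21 peaks without a B-lineage CTCF call). CAGCTG was present in 6 (26.1%, beside 26.8%) and CAGGTG in 7 (30.4%, beside 32.8%). These shares lay near the background, and a match marks letters and not a bound factor. The strongest such peak within Ccnd3, 38.3 kb from the 5′ end (percentile 69.8), is shown as an example of a DP Rad21 site with 4 mismatches to the CTCF motif at best. The centre of that peak, chr17:47680105-47680404 (plus strand), had 1 match to the 3 short motifs searched, CAGGTG read from the other strand, given in capitals.
Ccnd3 intron: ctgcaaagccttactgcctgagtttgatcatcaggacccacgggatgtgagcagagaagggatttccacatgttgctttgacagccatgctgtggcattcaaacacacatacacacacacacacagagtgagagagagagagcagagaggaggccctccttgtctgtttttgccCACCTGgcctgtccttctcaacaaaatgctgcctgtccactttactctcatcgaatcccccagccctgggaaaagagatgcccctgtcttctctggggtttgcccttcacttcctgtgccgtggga

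Other genes of the G1 and G1/S pathway had promoter peaks in 12 of 18 cases for CTCF in the IL7 culture and 7 of 18 for CTCF in pre-B cells. Rad21 promoter peaks were called at 5 of the 18 in pre-B cells, 0 in DN thymocytes and 14 in DP thymocytes. Over all genes these shares were 46.2% and 33.2% for CTCF and 25.5%, 6.64% and 36.4% for Rad21, in the same order. The 18 genes were the E cyclins and Cdk2, the inhibitors Cdkn1c, Cdkn2b and Cdkn2d, the retinoblastoma family (Rb1, Rbl1, Rbl2), E2f1 to E2f4 and Tfdp1, and Cdc25a, Skp2, Cks1b and Fbxw7. The highest CTCF percentile at a promoter was that of E2f2, an activating E2F factor, with 86.6 in the IL7 culture and 84.0 in pre-B cells. For Rad21 it was that of Fbxw7, a ubiquitin ligase subunit that targets cyclin E, with 89.4 in DP thymocytes, followed by Rb1 with 83.4. In pre-B Rad21 the highest promoter percentile of the 18 was 54.5, at Rb1. Of the 9 described genes Ccnd1 (96.5), Cdk6 (81.1) and Cdkn1a (88.0) stood above it, Ccnd2 (32.7) and Ccnd3 (6.24) below it, and the other 4 had no such peak.

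Each pattern of lists with a promoter peak was shared with many other genes. The pattern of Ccnd1 and Cdkn1a, a peak in all 5 lists, was shared by 6.13% of all protein-coding genes, and that of Ccnd3 and Cdk6, in all lists except DN, by 11.3%. That of Cdk4 and Cdkn1b, in the IL7 CTCF and DP Rad21 lists only, was shared by 4.57%. CTCF in both B-lineage lists with Rad21 in pre-B cells alone, as at Ccnd2, was seen at 3.46% of genes. Cdkn2a and Cdkn2c had patterns shared by 5.58% and 4.77%. By the distance between the promoter percentiles over the 5 lists, the genes most like Ccnd1 were Cblc (distance 4.25 percentile points) and Hook2 (7.03), and those most like Cdkn1a were Agpat3 (5.54) and Padi4 (6.59).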

How the data were processed

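CTCF and Rad21 peaks were taken from 5 peak lists, 1 library each, of RAG1-deficient C57BL/6 mice. Per the study's methods, the authors trimmed adapters and dropped duplicate reads before Bowtie alignment to mm9, with reads retained where they fitted at most 3 places. MACS then called the peaks of each library, under limits on the false discovery rate and the p-value. The submitters' processing notes name Bowtie 0.12.9 and MACS 1.4.2; the methods name a later Bowtie release. The deposited score of each peak was derived by the authors' MACS run from the p-value of the peak against the input of the same cells. Reads retained at several places can add signal in repeated sequence. Input libraries were not analysed here.

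Positions are 1-based mm9. Genes, transcript starts and bases came from the GENCODE annotation and genome of the same build. An overlap of 1 bp sufficed for a peak to count in a window, and a promoter was the 2 kb on either side of a transcript start. Scores were ranked within 1 list. No test between cell types was run, since each had 1 library; intervals given with shares are exact Clopper-Pearson 95% intervals. The Homer_DeNovo motif of 12 bases was searched on both strands with at most 2 mismatches. Overlap, ranking and motif steps were tested on simulated data. All 9 members are described, other pathway genes by counts with values for the highest ranked, and neighbours where a peak lay in or near them. The members, gene lists and alternatives were chosen with earlier results of these data known. Python 3.11.15, numpy 2.4.6, scipy 1.17.1 and matplotlib 3.10.9 were used.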

Additional observations from a re-analysis of the deposited data

How the results depend on the processing

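Only 15 results were recomputed, namely the peaks in the windows and the genes with a promoter peak in each list, 4 shares of overlap or of Rad21 sites in all lists, and the motif share. Scores of at least 100, lists of equal length within an antibody, counting by midpoint, other widths, another overlap and other mismatch limits were used where they applied. Of the 78 recomputed values 53 stayed within 1.5 times a count or within the 95% interval of a share, a wide margin under which, for example, the IL7 CTCF peaks went from 106 to 75 with scores of at least 100. With lists of equal length the windows held 61 CTCF peaks in the IL7 culture and 15 and 18 Rad21 peaks in pre-B and DP cells. Promoter peaks then remained at 5 genes for IL7 CTCF (Ccnd1, Cdk6, Cdkn1a, Cdkn2a, Cdkn2c), at 3 for pre-B Rad21 (Ccnd1, Cdk6, Cdkn1a) and at 4 for DP Rad21 (these and Ccnd3). With those lists 85.9% of pre-B CTCF peaks overlapped an IL7 peak and 90.2% the reverse, 25.0% of pre-B CTCF peaks overlapped Rad21, whose list is then limited to the length of the DN list, and 34.8% of Rad21 sites were called in all 3 lists. With scores of at least 100, DP thymocytes had 45 peaks, 80.0% of IL7 peaks overlapped a pre-B peak and 49.2% of pre-B CTCF peaks overlapped Rad21. Overlap shares over the whole lists at these settings are not given here, so these values stand without a background. Flanks of 20 kb gave 62 and 35 CTCF peaks in IL7-cultured pro-B and pre-B cells and 25 Rad21 peaks in pre-B cells, and flanks of 100 kb gave 166 and 107 CTCF peaks and 78 and 18 Rad21 peaks in pre-B and DN cells. Promoters of 1 kb left 4 genes with pre-B CTCF and 1 (Ccnd1) with DN Rad21, and promoters of 5 kb gave 4 with DN Rad21. For those widths the shares of all genes are not given here. The motif matched 12.5% of pre-B CTCF peaks with 1 mismatch and 93.8% with 3, where sequences 2000 bp away matched in 0% and 48.4%. No paired analysis was possible because each antibody and cell type had 1 library. The depths of the libraries are unknown, and their part in which sites were called was not tested.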
